A study of Mus musculus with 36 samples.

Results

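The potassium channel genes were described in mouse cortical neurons after stimulation with BDNF or KCl. They comprised 72 genes whose symbol begins with Kcn and whose mean normalised read count over the 18 RNA-seq libraries was at least 10. They were chosen by name and level alone, out of 26709 genes in the RNA table, of which 16209 reached that mean. The table held 93 Kcn genes, so 21 were too low to be counted as members, and 4 further Kcn names of antisense transcripts were left out. Neurons came from the cortex of CD-1 mouse embryos at embryonic day 15 and were kept for 7 days in vitro. All groups, controls included, were silenced with 100 µM AP-5, which blocks NMDA receptors, and 1 µM TTX, which blocks voltage-gated sodium channels. After 2 h of this silencing, neurons received BDNF at 10 ng/ml, KCl at 55 mM or nothing, for 1, 6 or 10 h. The labels give 2 h in the blockers for the stimulated groups and 3, 8 or 12 h for the controls. Whether the blockers stayed on during stimulation is not clear from them. In differences from controls, an effect of blocker time therefore cannot be told apart from that of the stimulus. These 9 groups had 2 RNA-seq and 2 ATAC-seq libraries each, called A and B here. The study describes the libraries of a group as biological replicates, and p-values measure the spread between them.

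Potassium channels let potassium ions leave a neuron and so set its resting potential, shape the action potential and limit repetitive firing. Voltage-gated (Kv) pore subunits open on depolarization, calcium- and sodium-activated subunits open after ion entry, inward rectifiers and two-pore-domain channels pass current near rest, and auxiliary subunits change the trafficking and gating of the pores. BDNF is a growth factor released by neurons that binds the receptor TrkB, whereas raised extracellular KCl depolarizes the membrane directly and lets calcium in.

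Both stimuli changed a large part of the potassium channel genes, some in the same direction and some in opposite directions. BDNF raised the Kv1 gene Kcna1 most, within 1 h, together with the strong inward rectifiers Kcnj4 and Kcnj2, the leak channel Kcnk3 and the silent subunit Kcnf1, and at 6 and 10 h it lowered the M-current gene Kcnq3 and raised the leak channel Kcnk9. KCl raised Kcna1, Kcna4, Kcnf1, Kcnk9 and the inward rectifiers Kcnj3, Kcnj4 and Kcnj6 several-fold, mostly at 6 and 10 h. Read counts of all members together made up 0.192 to 0.205% of all reads in the controls. After 1, 6 and 10 h of BDNF they made up 0.211 to 0.217%, 0.21 to 0.211% and 0.199 to 0.207%. After the same times of KCl they made up 0.195 to 0.198%, 0.213 to 0.252% and 0.239 to 0.256%. The libraries at 1 h of KCl thus lay within the range of the controls, and that at 10 h of BDNF overlapped it.

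RNA libraries held 8.51 to 36.7 M reads (median 11.6) and ATAC libraries 1.24 to 6.24 M reads in peaks (median 3.55), the lowest being KCl 6 h B. The RNA library KCl 6 h B gave 3.26% of its reads to 1 gene, against 0.64 to 1.01% in the other 17. RNA values are given below as normalised read counts, and log2 differences are on the log2(value + 1) scale, with the 6 controls pooled as 1 level (2 libraries against 6) and called at an adjusted p below 0.1. The controls were pooled as in the study, which found them grouped together whatever their time. With 2 libraries per time, tests between the control times can miss differences. Between controls, 0 members were called at 6 h against 1 h and 0 at 10 h against 1 h by limma, edgeR and DESeq2, beside 0.00% of all genes tested (limma), with 0 and 2 members at an unadjusted p below 0.05. Neuronal markers were abundant in every library (summed level 47218 to 52873 in controls), so the cultures matched their label, but they also held other cells. The summed level of 5 astrocyte markers was 8839 to 11819 in controls, 8668 to 9039 after 6 h of BDNF and 7027 to 8307 after 6 h of KCl, with 4 of the 4 markers tested lower in both, and that of 5 markers of dividing progenitors was 6561 to 9154 in controls and 5207 to 5343 after 6 h of KCl. The 5 oligodendrocyte-lineage markers summed to 5757 to 6204 in controls, 4280 to 4844 after 1 h of KCl and 6852 to 7191 after 6 h of KCl. Microglial and vascular markers were low in controls (101 to 156 and 165 to 231). In such bulk samples, fewer cells of a type and less RNA per cell cannot be told apart, and the part of these markers in the members' changes was not tested.

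Open chromatin near the members was read from 368 tested peaks that lay in a member's gene body or within 50 kb of its nearest start. The middle 200 bases of 6 of them are shown because each was among the 2 largest gains of a comparison with controls, with values given further below (GRCm38.p6, on the strand of the gene). They lie upstream of Kcna1 (chr6:126653717-126653916, minus strand), upstream of Kcnk12 (chr17:87827039-87827238, minus strand) and in introns of Kcnc4 (chr3:107442324-107442523, minus strand), Kcnd2 (chr6:21418454-21418653, plus strand), Kcnip4 (chr5:48564110-48564309, minus strand) and Kcnip1 (chr11:33860927-33861126, minus strand). Capitals mark the letters TGANTCA, the core site of the AP-1 factors of the FOS and JUN families, where they occur.
Kcna1: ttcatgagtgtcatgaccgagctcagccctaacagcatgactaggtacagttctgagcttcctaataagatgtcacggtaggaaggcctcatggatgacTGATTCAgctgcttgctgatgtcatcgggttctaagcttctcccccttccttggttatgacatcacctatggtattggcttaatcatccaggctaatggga
Kcnk12: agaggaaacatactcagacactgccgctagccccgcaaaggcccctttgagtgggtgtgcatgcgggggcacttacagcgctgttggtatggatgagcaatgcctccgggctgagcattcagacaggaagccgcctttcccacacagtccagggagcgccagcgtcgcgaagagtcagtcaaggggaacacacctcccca
Kcnc4: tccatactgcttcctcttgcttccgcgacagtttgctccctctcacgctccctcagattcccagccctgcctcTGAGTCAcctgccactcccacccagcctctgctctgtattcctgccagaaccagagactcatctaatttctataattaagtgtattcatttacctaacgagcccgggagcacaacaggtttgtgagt
Kcnd2: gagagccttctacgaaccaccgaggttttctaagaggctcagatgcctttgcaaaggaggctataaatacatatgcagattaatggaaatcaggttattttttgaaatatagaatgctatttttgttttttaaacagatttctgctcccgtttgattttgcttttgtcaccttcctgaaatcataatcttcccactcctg
Kcnip4: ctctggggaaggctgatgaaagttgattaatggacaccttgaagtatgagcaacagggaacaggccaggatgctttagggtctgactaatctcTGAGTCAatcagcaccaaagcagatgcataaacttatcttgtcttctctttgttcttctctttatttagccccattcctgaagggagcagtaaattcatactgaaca
Kcnip1: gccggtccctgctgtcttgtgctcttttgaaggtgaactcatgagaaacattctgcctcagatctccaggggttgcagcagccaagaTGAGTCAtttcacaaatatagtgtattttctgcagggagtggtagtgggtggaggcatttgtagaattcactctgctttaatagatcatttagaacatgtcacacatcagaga
The peaks of Kcna1, Kcnc4, Kcnip4 and Kcnip1 each hold 1 such match (Kcna1 at bases 100 to 106 of the 200 shown), and those of Kcnk12 and Kcnd2 hold 0.

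In unstimulated neurons the potassium channel genes spanned a wide range of levels. Per kilobase of exon, the A-type Kv4 subunits Kcnd3 (248 ± 13.5 normalised reads per kb, SD, n = 6) and Kcnd2 (221 ± 14.6) were among the highest, with Kcnj10, a rectifier known from glia, between them at 238 ± 59.3. The ranges of these 3 genes overlapped with their neighbours in this order. The stretch-sensitive leak channel Kcnk2 came next at 176 ± 14.9, and its range did not overlap with that of Kcnd2. Kcnj10 varied more between controls than the others, from 883 to 1685 normalised reads, and was not called in any comparison with controls.

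Against the controls, BDNF raised 14 of the 72 members and lowered 12 at 1 h, raised 22 and lowered 21 at 6 h, and raised 18 and lowered 18 at 10 h. Among all 16209 genes tested, calls at 1 h took 21.3% upward and 19.0% downward, those at 6 h 22.1% and 21.1%, and those at 10 h 21.1% and 19.5%. Of the members, 19.4% rose and 16.7% fell at 1 h, 30.6% rose and 29.2% fell at 6 h, and 25.0% rose and as many fell at 10 h, so that their shares lay near the share over all genes at 1 h and above it at 6 and 10 h. KCl raised 23 members and lowered 14 at 1 h, raised 32 and lowered 26 at 6 h, and raised 28 and lowered 21 at 10 h. At 1 h this was 31.9% of members upward and 19.4% downward, against 26.5% and 28.2% of all genes. At 6 h it was 44.4% and 36.1%, against 33.4% and 33.1%, and at 10 h 38.9% and 29.2%, against 29.0% and 28.2%. The median size of the log2 difference was 0.18, 0.36 and 0.31 over the members and 0.21, 0.23 and 0.22 over all genes after 1, 6 and 10 h of BDNF. After KCl it was 0.27, 0.57 and 0.53 over the members and 0.28, 0.38 and 0.30 over all genes. The median of the signed log2 difference at 6 h was -0.09 with BDNF and 0.17 with KCl over the members, and -0.0030 and 0.0075 over all genes. A member at least 2-fold higher was found 8, 6 and 5 times after BDNF and 3, 12 and 12 times after KCl, and one at least 2-fold lower 3, 4 and 1 times and 3, 7 and 4 times, at 1, 6 and 10 h. The share of all genes that changed as much is not given here, so these counts are not set against it.

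When each of the 8 libraries of a comparison was left out in turn, 12 higher and 4 lower calls held in every case at 1 h of BDNF, 15 higher and 9 lower at 6 h and 9 higher and 8 lower at 10 h. For KCl, 10 higher and 10 lower calls held at 1 h, 22 higher and 19 lower at 6 h and 21 higher and 13 lower at 10 h. The count at 10 h of BDNF fell from 36 to 20 without BDNF 10 h A.

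**Figure D1:**
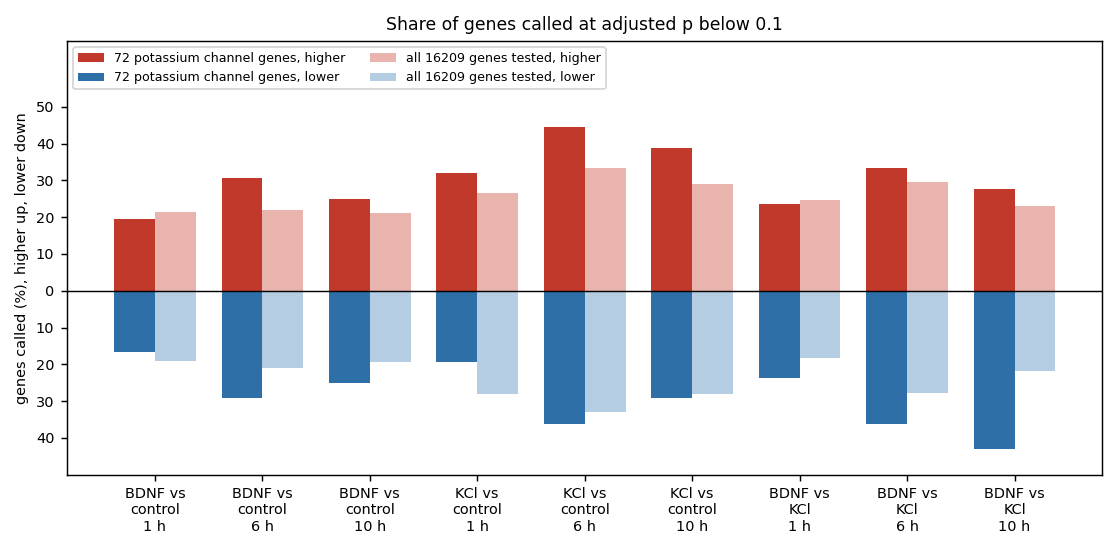
Share of the 72 potassium channel genes and of all 16209 genes tested (y axis, %) called higher or lower at an adjusted p below 0.1 in the 9 RNA comparisons (x axis). The members' share was above that of all genes at 6 h of both stimuli, for KCl with 44.4% of members higher against 33.4% of all genes.

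**Figure D2:**
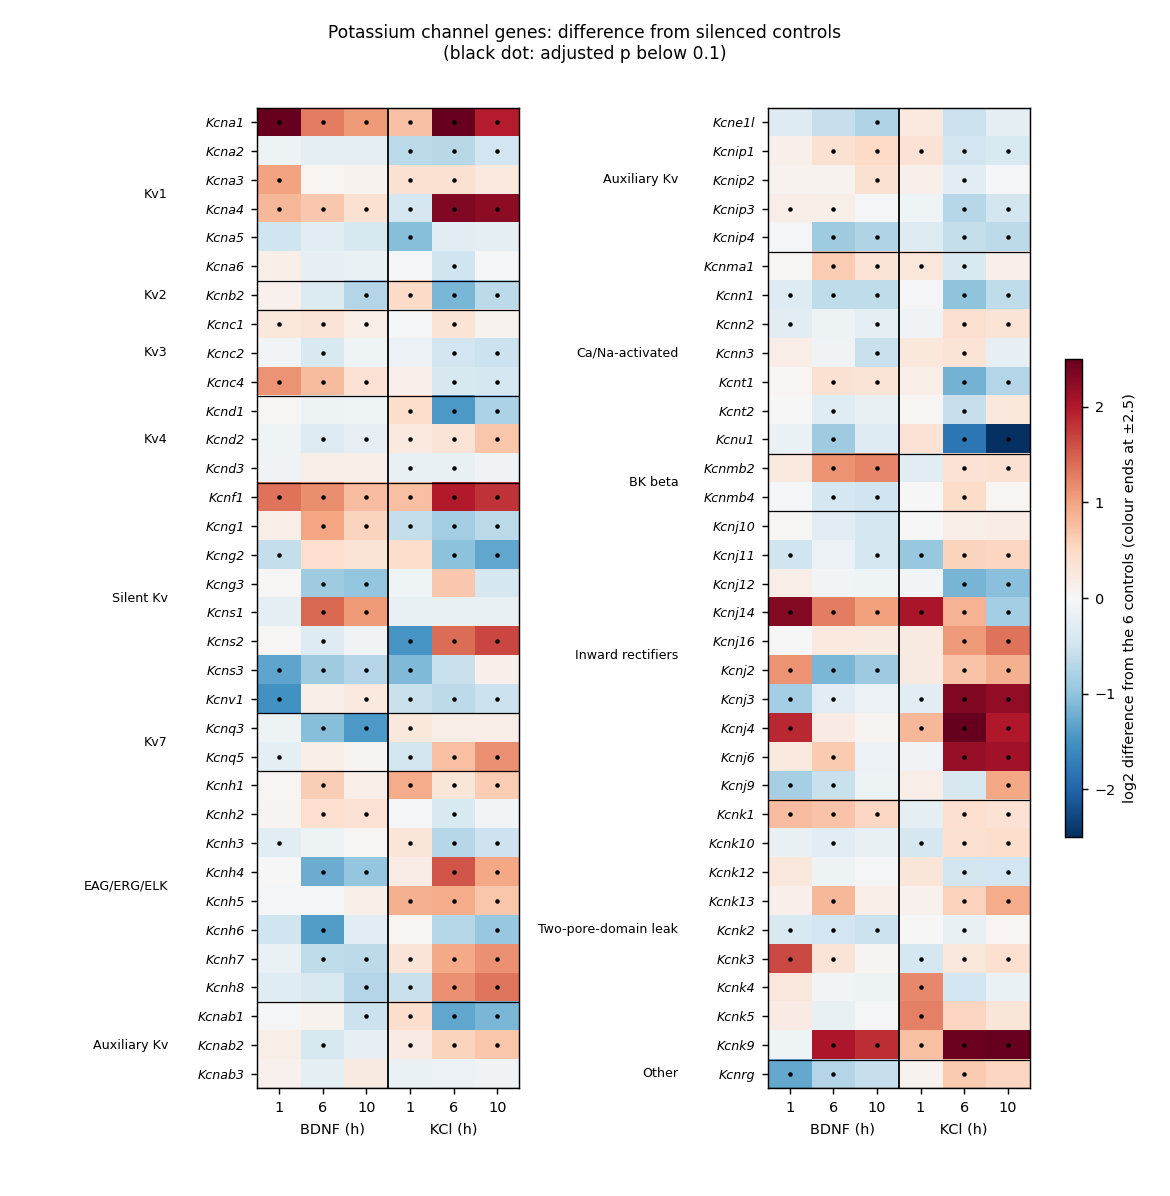
Log2 difference from the 6 controls (colour, ending at -2.5 and 2.5) of 68 members (rows, by class) after 1, 6 and 10 h of BDNF and KCl (columns), with a black dot for an adjusted p below 0.1. Kcna1 at 1 h of BDNF, at 3.38, goes past the end of the scale.

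The Kv1 subunits form fast, low-threshold channels of axons and terminals, and 6 of the 8 Kv1 genes were members. Among these 6, 3, 2 and 2 were called higher and 0, 0 and 0 lower at 1, 6 and 10 h of BDNF, and 2, 3 and 2 higher and 3, 2 and 1 lower at the same times of KCl, with a median log2 difference at 6 h of -0.08 with BDNF and 0.06 with KCl. Kcna1 (ENSMUSG00000047976, chr6:126640397-126646384), which encodes the axonal subunit Kv1.1, rose most of all members after 1 h of BDNF. Its normalised read counts were 170.1 to 209 (median 193) in the 6 controls and 1929.7 and 2105 after 1 h, 484 and 448 after 6 h and 410.3 and 400.3 after 10 h of BDNF. After KCl they were 367 and 280.1 after 1 h, 1174 and 1111 after 6 h and 688 and 827 after 10 h. All 12 stimulated libraries lay above the highest control, with the early peak after BDNF and the late one after KCl. The log2 difference was 3.38 ± 0.10 (limma, adjusted p = 5.8e-17) at 1 h, 1.27 at 6 h and 1.07 at 10 h of BDNF, and 0.74, 2.57 and 1.97 after KCl, each ± 0.10. Compared directly, BDNF stood above KCl by 2.65 ± 0.12 at 1 h, and the same log2 difference was -1.29 at 6 h and -0.89 at 10 h, so that Kcna1 was higher with BDNF early and higher with KCl late.

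Kcna4, the A-type subunit of the class, stood at 132 to 163 (median 158) in controls and at 286 and 260.3 after 1 h, 232 and 258 after 6 h and 202 and 201 after 10 h of BDNF. After KCl it stood at 121 and 109 after 1 h, 857 and 692 after 6 h and 759 and 707 after 10 h. Both libraries at 1 h of KCl lay below the lowest control and the other 10 stimulated libraries lay above the highest. Against controls it was at 0.82 ± 0.10 at 1 h of BDNF against -0.42 ± 0.10 at 1 h of KCl, and 2.32 ± 0.10 (limma, adjusted p = 7.7e-14) at 6 h of KCl. Among the other Kv1 members, Kcna3, best known from lymphocytes, was higher at 1 h of BDNF (1.00 ± 0.14), Kcna2, the usual partner of Kcna1, was lower at 6 h of KCl (-0.69 ± 0.17), Kcna6 was lower at 6 h of KCl (-0.50 ± 0.10), and Kcna5 was lower at 1 h of KCl (-1.05 ± 0.23). The Kcna6 exons overlap an antisense transcript over 39.6% of their length, and since strand was not stated for the counting, reads of both cannot be told apart.

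The Kv2 genes encode the main delayed rectifiers of the soma, the Kv3 genes high-threshold channels that allow fast firing, and the Kv4 genes the A-type channels of soma and dendrites. All 9 of them were members. Among the 4 Kv3 genes, 3, 2 and 2 were called higher and 0, 1 and 0 lower at 1, 6 and 10 h of BDNF, and 1, 2 and 1 higher and 0, 2 and 2 lower at the same times of KCl, with a median log2 difference at 6 h of 0.11 with BDNF and -0.03 with KCl. Kcnc4 (ENSMUSG00000027895, chr3:107438303-107459552), the A-type member of Kv3, had 116 to 143 (median 138) normalised reads in controls and 286 and 293 after 1 h, 245 and 214 after 6 h and 177 and 165 after 10 h of BDNF. The 2 libraries at 1 h of BDNF lay above all controls. Its log2 difference was 1.12 ± 0.12 (limma, adjusted p = 2.8e-07) at 1 h and 0.78 ± 0.12 at 6 h of BDNF, and 0.13 ± 0.12 at 1 h of KCl, which was not called. At 6 and 10 h of KCl it was lower (-0.41 ± 0.12 and -0.44 ± 0.12), with 112 and 89.1 normalised reads and 110.0 and 87.1, all below the lowest control. Kcnc1, found in fast-spiking interneurons, was higher at 1 and 6 h of BDNF (0.27 ± 0.07 and 0.32 ± 0.07), while Kcnc2 was lower at 6 h of KCl (-0.47 ± 0.10). Leaving out 1 library ended the call, with the log2 difference then found in parentheses, of Kcnc4 at 6 h of KCl without KCl 6 h B (-0.24), and Kcnc4 at 10 h of KCl without KCl 10 h B (-0.27).

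Among the 3 Kv4 genes, 0, 0 and 0 were called higher and 0, 1 and 1 lower at 1, 6 and 10 h of BDNF, and 2, 1 and 1 higher and 1, 2 and 1 lower at the same times of KCl, with a median log2 difference at 6 h of -0.14 with BDNF and -0.19 with KCl. Kcnd1 had 125 to 175 (median 147) normalised reads in controls and 212 and 183 after 1 h, 54.1 and 52.1 after 6 h and 97.8 and 71.9 after 10 h of KCl. It lay below all controls at 6 and 10 h, with a log2 difference of -1.44 ± 0.14 (limma, adjusted p = 2.0e-08) at 6 h and -0.79 ± 0.14 at 10 h, and was not called after BDNF. Kcnd2, the main somatodendritic A-type subunit, had 1044 to 1218 (median 1158) in controls, 914 and 905 after 6 h of BDNF and 1544 and 1306 after 6 h of KCl. The BDNF libraries lay below and the KCl libraries above the controls, at -0.32 ± 0.08 and 0.32 ± 0.08, and the log2 difference of BDNF from KCl was -0.64 ± 0.10. Kcnd3 was at 0.15 ± 0.07 at 6 h of BDNF, which was not called. Of the Kv2 genes, Kcnb2 was lower at 6 h of KCl (-1.15 ± 0.20).

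The silent Kv subunits give no current alone and modify Kv2 channels by joining them. Of the 10 silent genes 8 were members, and 1, 3 and 4 were called higher and 3, 3 and 2 lower at 1, 6 and 10 h of BDNF, and 1, 2 and 2 higher and 4, 3 and 3 lower at the same times of KCl, with a median log2 difference at 6 h of 0.28 with BDNF and -0.38 with KCl. Kcnf1 (ENSMUSG00000051726, chr12:17172100-17176888) was raised by both stimuli at all times. It had 337 to 400.3 (median 352) normalised reads in controls, 915 and 936 after 1 h, 769 and 855 after 6 h and 651 and 583 after 10 h of BDNF and 773 and 480.1 after 1 h, 1726 and 1199 after 6 h and 1324 and 1198 after 10 h of KCl. Every stimulated library lay above every control, and the log2 difference was 1.35 ± 0.14 (limma, adjusted p = 1.3e-06) at 1 h of BDNF and 1.99 ± 0.14 at 6 h of KCl. Kcng1 was raised by BDNF at 6 and 10 h and lowered by KCl at all 3 times. Controls had 223 to 250.1 (median 231), BDNF libraries 263 and 256 after 1 h, 425 and 499 after 6 h and 357 and 329 after 10 h, and KCl libraries 146 and 163 after 1 h, 149 and 110.0 after 6 h and 164 and 129.6 after 10 h. The BDNF libraries lay above and the KCl libraries below the controls at each time, although at 1 h of BDNF the difference was 0.15 ± 0.11 and not called. At 6 h it was 0.98 ± 0.11 with BDNF and -0.86 ± 0.11 with KCl, a log2 difference of BDNF from KCl of 1.84 ± 0.14 (limma, adjusted p = 7.9e-10).

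Other silent subunits changed at some times and not at others, or turned between times. Kcnv1 had 285 to 363 (median 309) normalised reads in controls and 106 and 111 after 1 h, 341 and 347 after 6 h and 368 and 367 after 10 h of BDNF. It lay below all controls at 1 h, with a log2 difference of -1.51 ± 0.10 (limma, adjusted p = 1.3e-10), and at 6 h the difference was 0.14 ± 0.10 and not called. After KCl it was lower at each time, with -0.56, -0.65 and -0.53 at 1, 6 and 10 h. Kcns2 had 72.6 to 101 (median 83.0) in controls and 29.6 and 29.9 after 1 h, 237 and 214 after 6 h and 286 and 260.3 after 10 h of KCl. It was below all controls at 1 h of KCl (-1.48 ± 0.15) and above them at 6 and 10 h (1.40 ± 0.15 and 1.67 ± 0.15). Kcns1 was higher at 6 and 10 h of BDNF (1.44 ± 0.22 and 1.07 ± 0.22) and was not called after KCl. Kcns3 was lower at 1 h of both stimuli (-1.31 ± 0.32 with BDNF and -1.10 ± 0.32 with KCl), Kcng2 was lower at 6 h of KCl (-1.03 ± 0.27), and Kcng3 was lower at 10 h of BDNF (-0.99 ± 0.39). The calls that ended when 1 library was left out were those of Kcng3 at 10 h of BDNF without BDNF 10 h A (-0.34) or Control 10 h B (-0.84).

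The Kv7 genes, among them Kcnq3 and Kcnq5, encode subunits of the M-current, which damps repetitive firing and is closed by muscarinic receptors. Among the 4 Kv7 members, 0, 1 and 1 were called higher and 1, 1 and 1 lower at 1, 6 and 10 h of BDNF, and 2, 1 and 2 higher and 1, 1 and 1 lower at the same times of KCl, with a median log2 difference at 6 h of 0.18 with BDNF and 0.08 with KCl. Kcnq3 (ENSMUSG00000056258, chr15:65986387-66286642) had 1036 to 1256 (median 1114) normalised reads in controls and 996 and 1045 after 1 h, 522 and 556 after 6 h and 458 and 369 after 10 h of BDNF. All 4 libraries at 6 and 10 h of BDNF lay below the lowest control, whereas the KCl libraries had 1411 and 1295 after 1 h, 1428 and 1121 after 6 h and 1250.4 and 1273 after 10 h. Kcnq3 stood at -1.06 ± 0.09 (limma, adjusted p = 1.1e-08) at 6 h and -1.45 ± 0.09 at 10 h of BDNF, and 0.17 ± 0.09 at 6 h of KCl, which was not called. Kcnq5 was at 538 to 620.1 (median 588) in controls and at 452 and 387 after 1 h, 1078 and 879 after 6 h and 1395 and 1172 after 10 h of KCl. It lay below the controls at 1 h of KCl (-0.47 ± 0.09) and above them at 6 and 10 h (0.75 ± 0.09 and 1.14 ± 0.09).

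**Figure D3:**
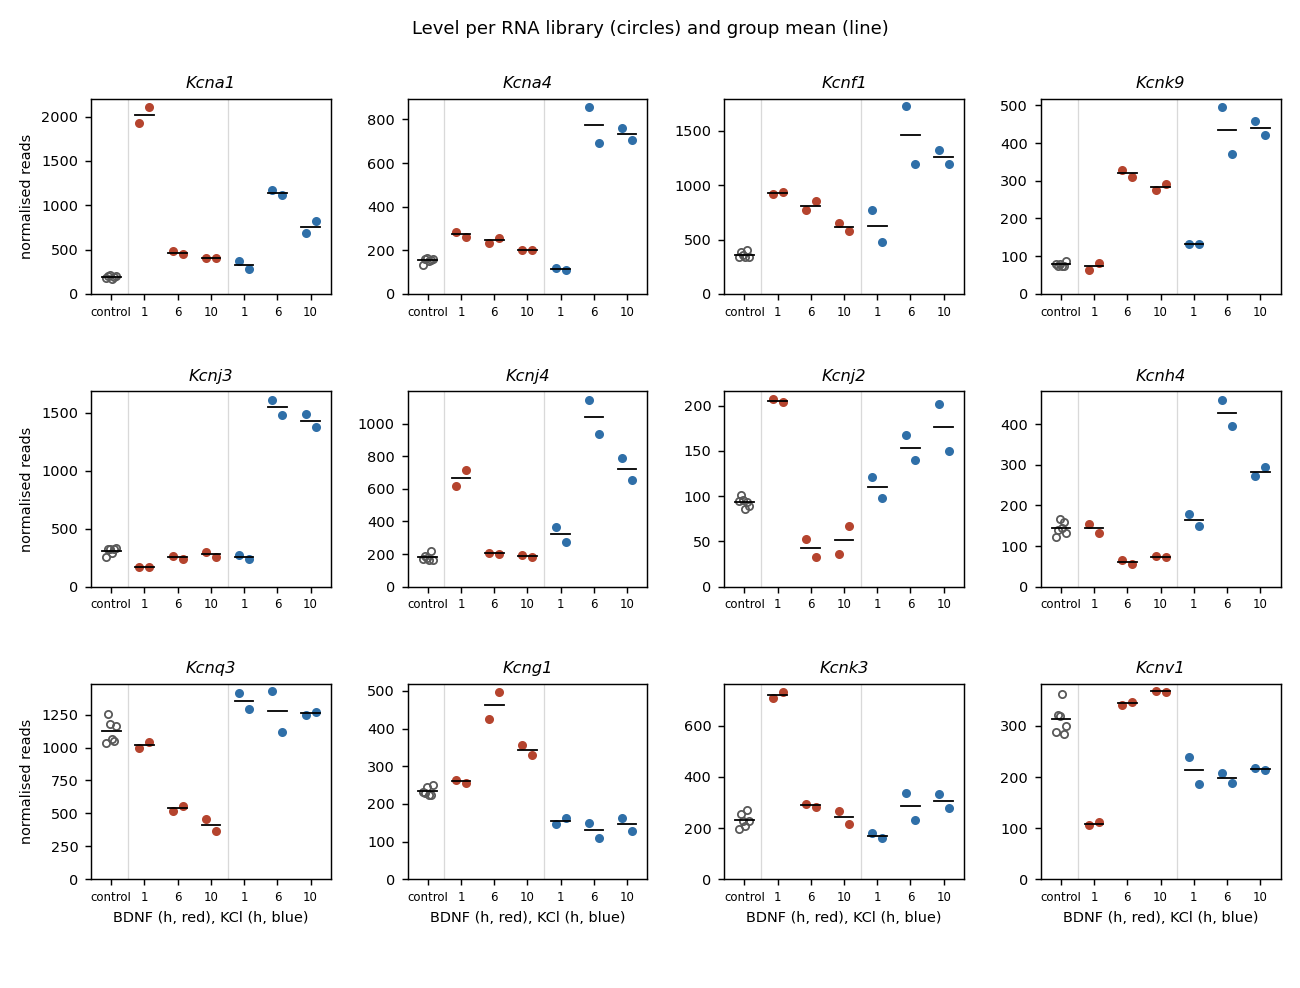
Normalised read count (y axis, linear from 0) of 12 members in each library, with the 6 controls and the 2 libraries of each stimulus at 1, 6 and 10 h along the x axis. Kcna1 reaches 1929.7 and 2105 after 1 h of BDNF, Kcnj3 1613 and 1483 after 6 h of KCl, and Kcnq3 522 and 556 after 6 h of BDNF.

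The EAG, ERG and ELK genes encode Kv channels with slow or unusual gating, among them the ERG channels that also repolarize the heart. All 8 were members, and 0, 2 and 1 were called higher and 1, 3 and 3 lower at 1, 6 and 10 h of BDNF, and 4, 5 and 5 higher and 1, 2 and 2 lower at the same times of KCl, with a median log2 difference at 6 h of -0.25 with BDNF and 0.62 with KCl. Kcnh4, an ELK gene, had 123 to 167 (median 142) normalised reads in controls and 154 and 133 after 1 h, 65.8 and 54.9 after 6 h and 74.6 and 71.9 after 10 h of BDNF. After KCl it had 178 and 149 after 1 h, 460.1 and 395 after 6 h and 271 and 294 after 10 h. At 6 and 10 h the BDNF libraries all lay below the controls and the KCl libraries all lay above them. At 6 h the log2 difference from controls was -1.24 ± 0.13 for BDNF and 1.57 ± 0.13 for KCl, and that of BDNF from KCl was -2.81 ± 0.16 (limma, adjusted p = 7.5e-12). The ERG gene Kcnh7 stood at -0.64 ± 0.09 after 6 h of BDNF and 0.95 ± 0.09 after 6 h of KCl, and the ELK gene Kcnh8 at -0.73 ± 0.18 and 1.34 ± 0.18 at 10 h. The EAG genes Kcnh1 and Kcnh5 were higher at 1 h of KCl (0.93 ± 0.12 and 0.90 ± 0.20) and not called at 1 h of BDNF (0.04 ± 0.12 and -0.05 ± 0.20). Kcnh3, an ELK gene, was lower at 6 h of KCl (-0.71 ± 0.12), and the ERG genes Kcnh2 and Kcnh6 were at 0.42 ± 0.14 and -1.40 ± 0.40 at 6 h of BDNF. The Kcnh7 exons overlap the gene Gca on the opposite strand over 4.57% of their length. Calls lost when 1 library was left out were those of Kcnh2 at 6 h of BDNF without BDNF 6 h A (0.34), and Kcnh6 at 6 h of BDNF without BDNF 6 h A (-0.25).

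The inward rectifiers hold the membrane near rest. The Kir2 genes (Kcnj2, Kcnj4, Kcnj12, Kcnj14) encode strong rectifiers that are always open, the Kir3 genes (Kcnj3, Kcnj6, Kcnj9) the GIRK channels that open after G-protein-coupled receptors such as those for GABA, and Kcnj11 the pore of the ATP-sensitive channel. Among the 10 members of 15 genes, 3, 2 and 1 were called higher and 3, 3 and 2 lower at 1, 6 and 10 h of BDNF, and 2, 7 and 7 higher and 2, 1 and 2 lower at the same times of KCl, with a median log2 difference at 6 h of -0.10 with BDNF and 0.79 with KCl. At 10 h of KCl the median was 0.93.

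Kcnj3 (ENSMUSG00000026824, chr2:55435970-55598145), the shared GIRK subunit, had 257 to 332 (median 323) normalised reads in controls and 274 and 241 after 1 h, 1613 and 1483 after 6 h and 1491 and 1379 after 10 h of KCl. After BDNF it had 170.3 and 169 after 1 h, 266 and 239.7 after 6 h and 298 and 258 after 10 h. The 4 late KCl libraries lay above all controls and the 2 libraries at 1 h of BDNF lay below them. The log2 difference was 2.32 ± 0.10 (limma, adjusted p = 3.7e-14) at 6 h and 2.21 ± 0.10 at 10 h of KCl, against -0.86 ± 0.10 at 1 h of BDNF, and the stimuli differed at 6 h by -2.61 ± 0.12 (BDNF from KCl). The exons of Kcnj3 overlap those of the noncoding gene Gm26794 on the opposite strand over 31.1% of their length, and the mean of Gm26794 was 28.3 normalised reads. Kcnj6, the main neuronal GIRK partner, had 30.2 to 50.3 (median 36.2) in controls and 32.1 and 39.6 after 1 h, 185 and 164 after 6 h and 159 and 173 after 10 h of KCl. It lay above the controls at 6 and 10 h of KCl (2.17 ± 0.19 and 2.099 ± 0.19) and was also higher at 6 h of BDNF (0.66 ± 0.19). Kcnj9 was lower at 1 h of BDNF (-0.82 ± 0.22) and higher at 10 h of KCl (0.96 ± 0.22). Without single libraries, the calls ended for Kcnj9 at 1 h of BDNF without BDNF 1 h A (-0.57).

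Of the Kir2 genes, Kcnj4 (ENSMUSG00000044216, chr15:79483714-79505241) responded to both stimuli. It had 164 to 219 (median 172) normalised reads in controls and 614 and 714 after 1 h, 208 and 202 after 6 h and 196 and 181 after 10 h of BDNF. After KCl it had 368 and 276 after 1 h, 1147 and 934 after 6 h and 791 and 656 after 10 h. It was above all controls at 1 h of BDNF and at every time of KCl, and within their range in at least 1 library at 6 and 10 h of BDNF. In log2 terms it gained 1.88 ± 0.12 (limma, adjusted p = 5.0e-11) at 1 h of BDNF and 2.53 ± 0.12 at 6 h of KCl. Kcnj2 rose and then fell with BDNF, with 86.1 to 102 (median 93.9) in controls and 207 and 204 after 1 h, 53.1 and 32.9 after 6 h and 36.2 and 66.6 after 10 h. It lay above the controls at 1 h (1.13 ± 0.19) and below them at 6 and 10 h (-1.14 ± 0.19 and -0.91 ± 0.19), while it was higher at 6 h of KCl (0.71 ± 0.19). Kcnj14, a low gene with 5.87 to 13.1 (median 10.3) in controls, had 57.8 and 45.8 after 1 h of BDNF and 46.9 and 39.6 after 1 h of KCl. It was higher at 1 h of both stimuli (2.29 ± 0.31 and 2.04 ± 0.31), in all 4 libraries. Among these calls, those that ended when a library was left out were Kcnj2 at 10 h of BDNF without BDNF 10 h A (-0.48).

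Kcnj12 was lower at 6 and 10 h of KCl (-1.15 ± 0.23 and -1.04 ± 0.23) and not called after BDNF (-0.06 ± 0.23 at 6 h). Kcnj11 was lower at 1 h of KCl (-0.95 ± 0.20) and Kcnj16, a subunit that pairs with Kcnj10, was higher at 6 and 10 h of KCl (1.05 ± 0.26 and 1.35 ± 0.26), where the 4 astrocyte markers tested were lower (summed level 7729 to 8227 at 10 h of KCl against 8839 to 11819 in controls). Kcnj10, which has its main known role in astrocytes, had 883 to 1685 (median 1306) in controls and 1099 and 1465 after 1 h, 1297 and 1515 after 6 h and 1266 and 1601 after 10 h of KCl, and was not called at 0.16 ± 0.22 at 6 h.

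The two-pore-domain channels carry the background leak current. Of 13 genes 9 were members, and 2, 4 and 2 were called higher and 1, 2 and 1 lower at 1, 6 and 10 h of BDNF, and 3, 5 and 5 higher and 2, 2 and 1 lower at the same times of KCl, with a median log2 difference at 6 h of -0.06 with BDNF and 0.39 with KCl. Kcnk9 (ENSMUSG00000036760, chr15:72501089-72546340), the acid-sensitive channel TASK-3, had 73.1 to 87.8 (median 76.8) normalised reads in controls and 62.3 and 83.2 after 1 h, 329.7 and 311 after 6 h and 276 and 292 after 10 h of BDNF. After KCl it had 132 and 132 after 1 h, 496 and 372 after 6 h and 459.6 and 420.4 after 10 h. It lay above the controls in all stimulated libraries but those at 1 h of BDNF, where it was -0.11 ± 0.12 and not called. Kcnk9 was at 2.03 ± 0.12 (limma, adjusted p = 4.2e-11) at 6 h of BDNF and 2.45 ± 0.12 at 6 h of KCl. Kcnk3 (ENSMUSG00000049265, chr5:30588170-30625271), its close relative TASK-1, had 198 to 271 (median 227) in controls, 707 and 733 after 1 h, 295 and 282 after 6 h and 266 and 217 after 10 h of BDNF and 180.3 and 159 after 1 h, 338 and 233 after 6 h and 331 and 277 after 10 h of KCl. Both libraries at 1 h of BDNF lay above the controls and both at 1 h of KCl below them. The log2 difference was 1.65 ± 0.13 (limma, adjusted p = 2.6e-09) and -0.44 ± 0.13, and that of BDNF from KCl was 2.08 ± 0.16. Kcnk3 was also called higher, by less, at 6 h of BDNF (0.33 ± 0.13) and at 6 and 10 h of KCl (0.29 ± 0.13 and 0.40 ± 0.13), with 1 library at 6 h of KCl within the range of the controls. Of the calls named, leaving out 1 library ended those of Kcnk3 at 1 h of KCl without KCl 1 h B (-0.35), Kcnk3 at 6 h of BDNF without BDNF 6 h A, BDNF 6 h B or Control 10 h A (0.29 to 0.36), Kcnk3 at 6 h of KCl without Control 10 h A, Control 6 h B or KCl 6 h A (0.02 to 0.26), and Kcnk3 at 10 h of KCl without KCl 10 h A (0.27).

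Kcnk1 was higher at each time of BDNF (0.78, 0.72 and 0.52 at 1, 6 and 10 h). The stretch-sensitive Kcnk2 was lower at each of these times (-0.37, -0.48 and -0.54), with 798 to 987 (median 869.9) normalised reads in controls and 640.2 and 704 after 1 h, 562 and 689 after 6 h and 605 and 595 after 10 h of BDNF. All 6 BDNF libraries lay below the lowest control. Its relative Kcnk10 was higher at 6 and 10 h of KCl (0.39 ± 0.10 and 0.44 ± 0.10). Kcnk5, an alkali-activated channel, had 12.7 to 28.0 (median 23.4) in controls and 48.2 and 56.7 after 1 h of KCl, a log2 difference of 1.27 ± 0.32. Kcnk4 was higher at 1 h of KCl (1.21 ± 0.34), Kcnk13 at 6 h of BDNF (0.84 ± 0.23), and Kcnk12 was lower at 6 h of KCl (-0.47 ± 0.16). Single libraries decided the calls of Kcnk4 at 1 h of KCl without KCl 1 h B (0.88), and Kcnk12 at 6 h of KCl without KCl 6 h B (-0.42).

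Calcium-activated channels end bursts and set the afterhyperpolarization, and the sodium-activated Kcnt1 and Kcnt2 follow sodium entry. Of the 8 pore genes 7 were members, and 0, 2 and 2 were called higher and 2, 3 and 3 lower at 1, 6 and 10 h of BDNF, and 1, 2 and 1 higher and 0, 5 and 3 lower at the same times of KCl, with a median log2 difference at 6 h of -0.13 with BDNF and -0.57 with KCl. The SK gene Kcnn1 was lower at 6 and 10 h of both stimuli, with 123 to 184 (median 141) normalised reads in controls, 116 and 119.8 after 1 h, 100.0 and 87.8 after 6 h and 103 and 87.0 after 10 h of BDNF and 138 and 143 after 1 h, 80.6 and 66.0 after 6 h and 99.0 and 88.2 after 10 h of KCl. All 8 late libraries lay below the controls, at -0.64 ± 0.14 at 6 h of BDNF and -0.997 ± 0.14 at 6 h of KCl. The sodium-activated Kcnt1 had 295 to 442 (median 352) in controls and 425 and 370.0 after 1 h, 177 and 137 after 6 h and 252 and 179 after 10 h of KCl. It lay below the controls at 6 and 10 h (-1.17 ± 0.15 and -0.73 ± 0.15), and BDNF differed from KCl by 1.56 ± 0.18 at 6 h. Kcnma1, the BK pore, was higher at 6 h of BDNF (0.63 ± 0.13), Kcnn2 was higher (0.40 ± 0.10) and Kcnt2 lower (-0.57 ± 0.14) at 6 h of KCl, and Kcnn3 was lower at 10 h of BDNF (-0.55 ± 0.17). Kcnu1, a pore subunit known from sperm, was low, with 34.0 to 52.9 (median 43.4) in controls and 6.11 and 4.36 after 10 h of KCl (-2.81 ± 0.27). The calls of these genes that ended without 1 library were Kcnn3 at 10 h of BDNF without BDNF 10 h B (-0.41).

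Of the 4 BK beta genes 2 were members. Kcnmb2, which makes BK current inactivate, had 48.1 to 82.3 (median 62.5) normalised reads in controls and 74.5 and 74.0 after 1 h, 146 and 129 after 6 h and 133 and 163 after 10 h of BDNF. The 4 late libraries lay above all controls, at 1.12 ± 0.16 (limma, adjusted p = 1.1e-05) at 6 h and 1.23 ± 0.16 at 10 h. Kcnmb4, the brain form, was higher at 6 h of KCl (0.47 ± 0.17), with antisense transcripts Kcnmb4os1 and Kcnmb4os2 over 10.7 and 20.9% of its exons.

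The auxiliary Kv subunits comprise the Kvbeta genes Kcnab1 to Kcnab3, the KChIP genes Kcnip1 to Kcnip4, which bind Kv4 channels, and the Kcne genes. Of 12 genes 8 were members, and 1, 2 and 2 were called higher and 0, 2 and 3 lower at 1, 6 and 10 h of BDNF, and 3, 1 and 1 higher and 0, 5 and 4 lower at the same times of KCl, with a median log2 difference at 6 h of -0.08 with BDNF and -0.51 with KCl. Kcnab1 had 81.9 to 95.4 (median 88.2) normalised reads in controls and 125 and 117 after 1 h, 32.4 and 39.4 after 6 h and 41.6 and 38.1 after 10 h of KCl. It was below all controls at 6 and 10 h (-1.29 ± 0.15 and -1.14 ± 0.15). Kcnab2 went the other way, higher at 6 h of KCl (0.56 ± 0.10) and lower at 6 h of BDNF (-0.39 ± 0.10). Among the KChIPs, Kcnip4 had 55.3 to 67.4 (median 60.0) in controls, 59.3 and 57.2 after 1 h, 35.1 and 29.3 after 6 h and 35.0 and 35.6 after 10 h of BDNF and 43.2 and 53.5 after 1 h, 36.4 and 42.8 after 6 h and 30.6 and 46.8 after 10 h of KCl. It was lower at 6 and 10 h of BDNF (-0.89 ± 0.17 and -0.76 ± 0.17) and at 6 h of KCl (-0.60 ± 0.17). Kcnip3, also called DREAM, was lower at 6 and 10 h of KCl (-0.71 ± 0.07 and -0.46 ± 0.07), and Kcnip1 was higher at 10 h of BDNF (0.51 ± 0.12) and lower at 10 h of KCl (-0.38 ± 0.12). Kcnip2 was higher at 10 h of BDNF (0.37 ± 0.12) and Kcne1l was lower there (-0.75 ± 0.27). Kcnab3 was not called in any of the 6 comparisons with controls. Outside these classes, Kcnrg, named as a channel regulator, had 15.6 to 26.4 (median 22.8) in controls and 4.56 and 14.5 after 1 h of BDNF (-1.27 ± 0.32). Leaving out 1 library at a time ended the calls of Kcnip2 at 10 h of BDNF without BDNF 10 h A (0.29), Kcne1l at 10 h of BDNF without BDNF 10 h A (-0.54), and Kcnrg at 1 h of BDNF without BDNF 1 h A (-0.53).

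Whether the stimuli acted differently was tested directly between the BDNF and KCl libraries, without the controls. BDNF libraries had 17 members higher and 17 lower than KCl libraries at 1 h, 24 higher and 26 lower at 6 h, and 20 higher and 31 lower at 10 h. Of all genes, BDNF libraries had 24.6% higher and 18.2% lower at the first time, 29.6% and 27.8% at the second and 23.1% and 21.8% at the last, so that at 10 h the lower members (43.1%) stood above the share over all genes. The inward rectifiers held 8 of the 31 members lower at 10 h, with a median log2 difference of -1.11 over the class against 0.0012 over all genes. At 1 h the members most in favour of BDNF were Kcna1 (2.65 ± 0.12), Kcnk3 (2.08 ± 0.16) and Kcns2 (1.51 ± 0.18). At 6 h they were Kcng1 (1.84 ± 0.14), Kcns1 (1.64 ± 0.27) and Kcnt1 (1.56 ± 0.18), and those most in favour of KCl were Kcnh4 (-2.81 ± 0.16), Kcnj3 (-2.61 ± 0.12) and Kcnj4 (-2.33 ± 0.15). At 10 h Kcnu1 (2.49 ± 0.33) and Kcnj14 (1.87 ± 0.38) were most in favour of BDNF, and Kcnj3 (-2.37 ± 0.12) and Kcnj6 (-2.25 ± 0.23) most in favour of KCl.

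Change with time was tested within each stimulus. Between 1 and 6 h of BDNF 26 members changed, beside 33.6% of all genes, and between 6 and 10 h limma called 0, beside 0.216% of all genes. In the later step 15 members had an unadjusted p below 0.05 (limma), and edgeR and DESeq2 called 0. Between 1 and 6 h of KCl 49 members changed, beside 59.6% of all genes, and between 6 and 10 h 17 changed, beside 22.5%, which fell to 7 without KCl 10 h A. From 1 to 6 h of BDNF, the rectifier Kcnj2 (-2.27 ± 0.23 (limma, adjusted p = 2.3e-07)), Kcna1 (-2.11) and Kcnj4 (-1.69) dropped back, while Kcnk9 (2.14), Kcns1 (1.68) and Kcnv1 (1.65) climbed. From 1 to 6 h of KCl the largest gains were in Kcns2 (2.88), Kcna4 (2.73), Kcnj3 (2.59) and Kcnj6 (2.26), and the largest falls in Kcnu1 (-2.17) and Kcnd1 (-1.87). From 6 to 10 h of KCl, Kcnj14 fell (-1.72 ± 0.38) and Kcnj9 rose (1.36 ± 0.27).

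Genes outside the Kcn names that work with these channels were read from a list of 21, of which 18 were tested. BDNF raised 2, 5 and 5 of them and lowered 3, 8 and 6 (1, 6 and 10 h), and KCl raised 9, 8 and 7 and lowered 4, 7 and 4. Of all genes, 21.3, 22.1 and 21.1% were raised and 19.0, 21.1 and 19.5% lowered by BDNF, and 26.5, 33.4 and 29.0% and 28.2, 33.1 and 28.2% by KCl. With each library left out in turn, 2, 3 and 3 of the partners raised by BDNF and 3, 6 and 5 of those lowered kept the call in every case, and 3, 6 and 6 and 3, 3 and 1 of those of KCl. Lgi1, a secreted partner of Kv1 complexes, was lower at 1 h of BDNF (-0.67 ± 0.10) and higher at 6 and 10 h of BDNF (0.46 and 0.53). With KCl it was higher at 1, 6 and 10 h (0.24, 1.68 ± 0.10 and 1.67). Its call at 1 h of KCl ended without KCl 1 h A (0.09). Nedd4l, a ubiquitin ligase that acts on Kv7 channels, was lower at 6 h of BDNF (-0.86 ± 0.06). Of the BK gamma subunits, Lrrc26 was higher at 6 h of KCl (2.46 ± 0.27), and Lrrc55 was at -0.62 ± 0.11 at 10 h of BDNF and 1.02 ± 0.11 at 10 h of KCl.

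In the ATAC-seq data, 373 of the 58177 peaks were linked to 69 of the members, 368 of them passed the filter on low counts, and 80 lay at a promoter, from 1000 bp before to 100 bp after a start. More of these peaks gained than lost accessibility. BDNF opened 60 of the 368 and closed 25 at 1 h, beside 12.5% and 4.78% of all 56383 peaks tested (edgeR, adjusted p below 0.1). At 6 h it opened 47 and closed 10, beside 8.88% and 1.75%, and at 10 h it opened 37 and closed 3, beside 7.46% and 1.90%. KCl opened 24 and closed 11 at 1 h, beside 5.29% and 3.05%, 26 and 10 at 6 h, beside 5.44% and 2.06%, and 34 and 7 at 10 h, beside 5.91% and 1.96%. Openings thus took 16.3, 12.8 and 10.1% of the linked peaks after BDNF (1, 6 and 10 h) and 6.52, 7.07 and 9.24% after KCl. Of the 80 promoter peaks, BDNF opened 3, 0 and 0 at 1, 6 and 10 h and KCl 6, 1 and 0. The 6 at 1 h of KCl made up 7.50% of promoter peaks, a share not below the 6.52% of all linked peaks and the 5.29% of all peaks at that time. BDNF libraries had 42 linked peaks above and 28 below KCl libraries at 1 h, beside 9.30% and 5.55% of all peaks, 8 and 8 at 6 h, beside 2.25% and 1.37%, and 5 and 1 at 10 h, beside 1.16% and 0.830%.

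These peak calls leaned more on single libraries than the RNA calls. When each library was left out in turn, 38, 24 and 14 of the openings held in every case at 1, 6 and 10 h of BDNF and 2, 3 and 6 at those of KCl, and 3, 0 and 1 and 0, 0 and 0 of the closings. The counts of called peaks moved by over 1.5 times without BDNF 6 h A (57 to 34) or B (35), BDNF 10 h A (40 to 26) or B (25), KCl 1 h A (35 to 10) or B (15), KCl 6 h A (36 to 6), and KCl 10 h A (41 to 13) or B (22). Between the stimuli, the count at 1 h went from 70 to 39 without BDNF 1 h A, 33 without B and 27 without KCl 1 h B, and those at 6 and 10 h from 16 to between 5 and 9 and from 6 to between 1 and 3 without any 1 of their 4 libraries.

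The peak with the largest gain lay 7.43 kb upstream of Kcna1 (chr6:126653664-126653971), whose sequence is printed above. Its scaled count was 1.49 to 6.26 (median 3.40) in the 6 control libraries, 52.2 and 44.0 after 1 h, 32.8 and 19.5 after 6 h and 23.1 and 9.35 after 10 h of BDNF. After KCl it was 13.0 and 5.74, 14.8 and 5.04 and 14.9 and 9.46 at 1, 6 and 10 h. All 6 BDNF libraries lay above the controls, while 1 library each at 1 and 6 h of KCl lay within their range. The log2 difference was 3.61 ± 0.43 (edgeR, adjusted p = 8.8e-12) at 1 h and 2.71 ± 0.47 at 6 h of BDNF, and BDNF stood above KCl by 2.40 ± 0.52 at 1 h, when Kcna1 RNA was also higher with BDNF. At the Kcna1 promoter itself, the peak gained less, 0.73 ± 0.16 at 1 h of KCl and 0.30 ± 0.17 at 1 h of BDNF, which was not called.

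The peak in an intron of Kcnc4 (chr3:107442150-107442699, 17.1 kb past its nearest start) had 9.21 to 18.8 (median 11.2) in controls and 95.8 and 115, 90.2 and 100.3 and 80.5 and 97.2 at 1, 6 and 10 h of BDNF. It stayed far above the controls at all 3 times, at 3.08 ± 0.27, 2.94 ± 0.27 and 2.84 ± 0.29, and was higher with BDNF than with KCl by 2.03 ± 0.36 (edgeR, adjusted p = 1.4e-04) at 6 h. Kcnc4 RNA was raised by BDNF at 1 and 6 h. The peak 29.1 kb upstream of Kcnk12 (chr17:87826976-87827303) had 1.47 to 12.2 (median 4.99) in controls and 57.6 and 76.0 after 1 h of BDNF, a gain of 3.48 ± 0.40, while Kcnk12 RNA was at 0.29 ± 0.16 and not called. The intronic Kcnip1 peak (chr11:33860885-33861169) had 1.82 to 7.69 (median 3.91) in controls and 40.5 and 29.7 after 6 h of BDNF (3.04 ± 0.46).

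The largest gains after KCl lay at other peaks, but BDNF also opened some peaks named here. The peak in an intron of Kcnd2 (chr6:21418376-21418733), 203 kb past its nearest start, had 2.92 to 19.1 (median 8.79) in controls and 35.0 and 61.2 after 6 h of KCl. Both libraries lay above the controls, with a log2 difference of 2.12 ± 0.39 (edgeR, adjusted p = 8.4e-05), and Kcnd2 RNA was raised at that time (0.32 ± 0.08). The Kcnd2 peak had 30.2 and 30.4 after 1 h of BDNF, also above the controls. Kcnip4 held 26 tested peaks, of which BDNF opened 5, 5 and 4 at 1, 6 and 10 h and KCl 0, 4 and 4. Its peak 35.5 kb past the nearest start (chr5:48564105-48564316) had 1.01 to 7.43 (median 4.0) in controls, 38.2 and 31.8 after 1 h of BDNF and 25.0 and 29.3 after 10 h of KCl. It gained 2.95 ± 0.43 and 2.59 ± 0.46, while Kcnip4 RNA was not called at 1 h of BDNF (-0.05 ± 0.17) and was lower at 10 h of KCl (-0.66 ± 0.17). Kcnq5 held 18 tested peaks, of which BDNF opened 5 at each time and KCl 2 at each time. The Kcnq5 peak chr1:21616710-21616995 gained 2.71 ± 0.32 at 1 h of BDNF and 1.96 ± 0.38 at 6 h of KCl. The 3 intronic peaks of Kcnma1 opened at 1 h of BDNF gained 2.84 ± 0.27, 2.78 ± 0.42 and 2.46 ± 0.40. The call of Kcnip4 RNA at 10 h of KCl ended without the RNA library KCl 10 h A (-0.36).

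**Figure D4:**
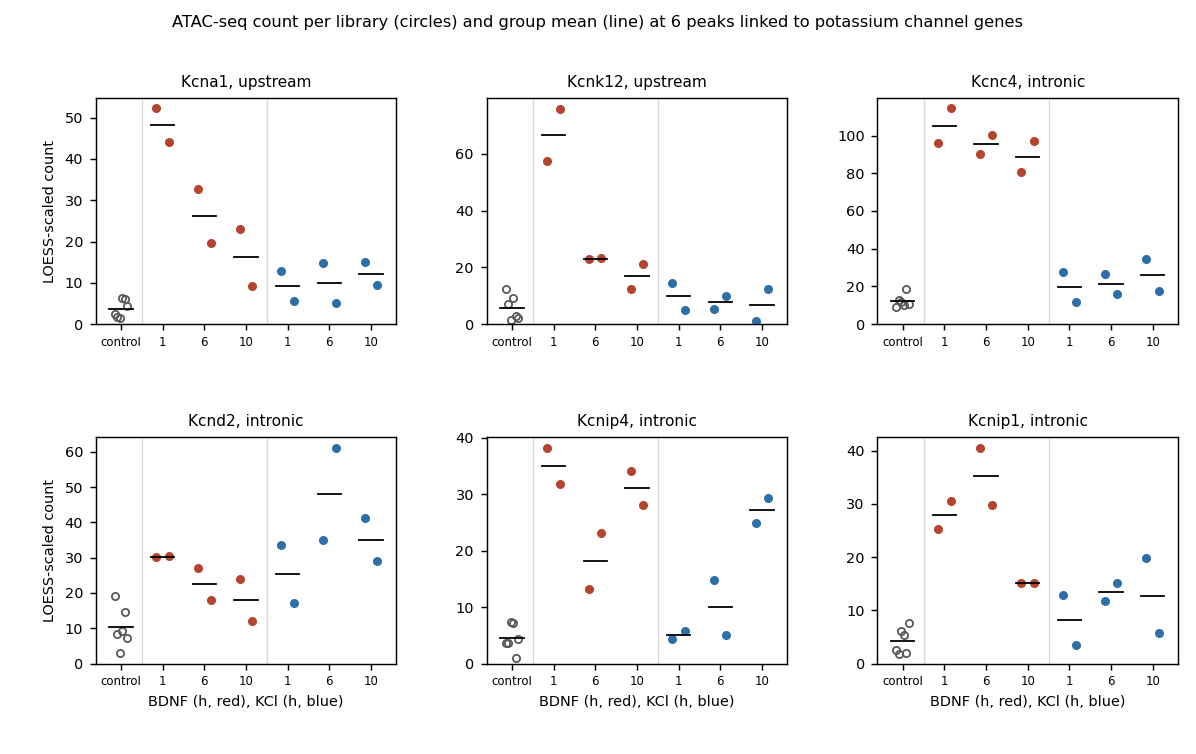
Scaled ATAC count (y axis, reads after LOESS scaling) at the 6 peaks whose sequences are shown, in each control library and in the 2 libraries of each stimulus and time (x axis). The Kcna1 peak lies at 1.49 to 6.26 in controls and at 52.2 and 44.0 after 1 h of BDNF, and the Kcnd2 peak is highest in KCl libraries, at 35.0 and 61.2 after 6 h.

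Fewer linked peaks closed. The largest fall at 1 h of BDNF was in an intron of Kcnt2 (chr1:140468456-140468650), -2.61 ± 0.61 (edgeR, adjusted p = 5.6e-04), and a peak at the Kcna4 promoter (chr2:107291175-107291539) was lower at 10 h of BDNF (-1.43 ± 0.43), when Kcna4 RNA was higher (0.39 ± 0.10). Kcnk9, Kcnj4, Kcnh4 and Kcng1, with large RNA changes, had no linked peak opened in any of the 6 comparisons. The call of the Kcna4 promoter peak at 10 h of BDNF ended without the ATAC library BDNF 10 h B (-0.91).

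Opened chromatin and changed RNA met in part of the members. At 1 h of BDNF, 31 members had at least 1 opened peak, and of these 6 had higher RNA, 2 lower RNA and 23 no call, against 8, 10 and 23 of the 41 members without one. Of the 17 members with a closed peak at that time, 0 had higher and 5 lower RNA. At 6 and 10 h of BDNF, 2 of 9 and 1 of 3 such members had higher RNA, and 3 and 2 lower. At 1, 6 and 10 h of KCl, 1 of 8, 4 of 10 and 2 of 7 had higher RNA, and 2, 5 and 1 lower. At 6 h of BDNF, 7 of 24 members with an opened peak had higher RNA, against 15 of 48 without. At 10 h of BDNF this was 5 of 21 against 13 of 51. For KCl it was 7 of 17 against 16 of 55 at 1 h, and 8 of 16 against 24 of 56 at 6 h. At 10 h of KCl, 11 of 20 members with an opened peak had higher RNA, against 17 of 52 without. The same shares over all genes are not given here. No test was made of these shares.

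The AP-1 letters TGANTCA, which read the same on both strands, occurred in the middle 200 bases of 72 of the 368 linked peaks (19.6%) and of 7311 of all 56383 peaks tested (13.0%). Among linked peaks opened by BDNF at 1, 6 and 10 h, 68.3, 74.5 and 73.0% held them, beside 59.7, 68.5 and 67.3% of all opened peaks. For KCl the shares were 50.0, 76.9 and 64.7% of linked and 35.7, 54.9 and 56.8% of all opened peaks. Of all closed peaks, 1.87 to 4.24% held them. In the 300-base promoter windows of RefSeq (250 bases before to 50 after a start), found for 51 of the 72 members, the AP-1 letters occurred for Kcnip3, Kcnip4 and Kcnk2, in 4.05% of their windows against 7.81% of all windows. The cyclic-AMP response element TGACGTCA occurred in 0 of their windows against 1.79% of all, and the EGR letters GCGNGGGCG in 5.41% against 5.55%, for Kcna4, Kcng3, Kcnk2 and Kcnt2. Such a match is a description and shows no binding.

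**Figure D5:**
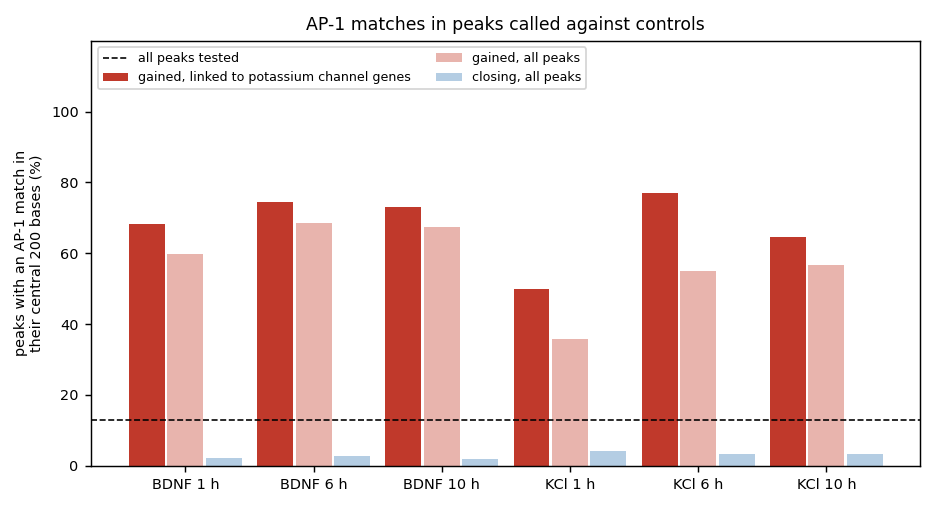
Share of peaks with the AP-1 letters in their middle 200 bases (y axis, %) among opened peaks linked to a member, all opened peaks and all closed peaks, for each stimulus and time (x axis), with a dashed line for all peaks tested. Opened linked peaks range from 50.0% at 1 h of KCl to 76.9% at 6 h of KCl, and the line lies at 13.0%.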

How the data were processed

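RNA-seq (polyA) and ATAC-seq were each read in 18 libraries, 2 for each of 9 groups taken from the sample labels. Per the submitters' processing notes and the methods, reads were trimmed (Trimmomatic) and mapped to mm10 (TopHat2 for RNA, Bowtie2 for ATAC), peaks were called per sample with MACS2 and merged with DiffBind, and the strand setting of the gene counts is not stated in what was used here. RNA values were deposited by the authors as a signal scale on which gene counts are divided by the DESeq2 size factor of the library. Every value was a whole number of reads within 0.01 once its scaling was undone (100% of values), which gave the depth of each library. The deposited ATAC values are raw counts over the authors' merged peaks. The deposited tables of the authors' own comparisons (log2 fold changes, p-values and scores) served only to pair gene identifiers with symbols.

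Features with a mean of at least 10 were tested, 16209 genes and 56383 of 58177 peaks. RNA was fitted as log2(value + 1) with limma 3.58.1 (7 levels, with the 6 controls as 1, trend and robust), and fold changes on this scale understate those of low genes. ATAC counts were fitted with edgeR 4.0.16 (quasi-likelihood, robust) and LOESS offsets (span 0.3). P-values were two-sided and adjusted over all features by Benjamini-Hochberg, with calls at an adjusted p below 0.1. A peak was linked when its centre lay in a member's body or within 50 kb of its nearest start (GENCODE annotation of mm10, a later release than the authors'). Replicates differed by more than sampling noise, and the number of libraries limits the precision. For RNA, chi-square per degree of freedom was 40.3 at 6 h of KCl and 2.46 to 11.1 in the other groups. For ATAC it was 2.06 to 2.58. The alternatives were pseudocounts of 0.1 and 5, no filter, other scalings, DESeq2 1.42.0, edgeR on the recovered reads, controls of the same time, an adjusted p below 0.01, links up to 20 kb, the RNA letter as a block, and each library left out. The fits were tested on simulated data in R 4.3.3, and tables and figures used Python 3.11.15.

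The members and lists (channel classes, partners, markers of cell types) were chosen with earlier results of these data known. Named genes were, per comparison with controls, the 3 called members with the largest rise and fall, per direct comparison the 2 in each direction, the 5 highest per exonic kb in controls and those called in opposite directions by the stimuli. Other members were named as examples of their class. Named peaks were the 2 with the largest called gain and fall per comparison and promoter peaks of named genes, and the others were chosen after their values were seen. A few members and partners that these rules would name are not reported here, although the counts over classes and lists include them.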

Additional observations from a re-analysis of the deposited data

Results flagged for a closer look

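The 6 control libraries were searched for 1 that stood apart, in 68 sets of control values (46 named genes and their named peaks), and 3 sets had one, all at peaks, where chance gives about 1 in 20. The Kcna4 promoter peak had a scaled count of 43.2 in control 6 h A against 24.7 to 31.3 in the other 5. The Kcnip2 promoter peak had 5.61 in control 1 h B against 9.22 to 11.2, and the Kcnq5 peak chr1:21491845-21492086 had 11.4 in control 10 h A against 1.13 to 3.996. Without control 10 h A, the gain of this Kcnq5 peak at 10 h of BDNF was still called by edgeR.

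In 16 cases a member was called in one direction at one time of a stimulus and in the other direction at the next time, and the difference between the times was itself called by limma (adjusted p from 5.8e-13 to 0.0044). The share of all genes that turned in this way is not given here, so these cases are not set against it. Between 1 and 6 h of KCl, 59.6% of all genes changed. With BDNF this was Kcnj2, whose log2 difference from controls at 6 h minus that at 1 h was -2.27. With KCl between 1 and 6 h, the members that turned upward were Kcns2 (2.88), Kcna4 (2.73), Kcnj3 (2.59), Kcnh8 (1.69), Kcnj11 (1.49), Kcnq5 (1.22), Kcnk10 (0.807) and Kcnk3 (0.724). Those that turned downward were Kcnd1 (-1.87), Kcnab1 (-1.73), Kcnb2 (-1.63), Kcnh3 (-1.01), Kcnip1 (-0.85) and Kcnma1 (-0.677). Kcnj14 turned downward between 6 and 10 h of KCl (-1.72). In 10 of the 16 cases, at least 1 of the 2 calls against controls ended when a library was left out, while the difference between the times kept its call in all 16. At 1 h of KCl these were Kcnab1 (0.38), Kcnb2 (0.25), Kcnd1 (0.33) and Kcnip1 (0.19) without KCl 1 h A, Kcnj3 (-0.17) without KCl 1 h B, and Kcnh3 (0.30 each) without either. At 6 h of KCl it was Kcnj11 (0.50) without KCl 6 h A. For Kcnk3 it was the call at 1 h without KCl 1 h B (-0.35) and that at 6 h without KCl 6 h A (0.020), Control 6 h B or Control 10 h A (0.26 and 0.25). For Kcnma1 it was the call at 1 h without KCl 1 h A, Control 1 h A or Control 10 h A (0.18, 0.23 and 0.28) and that at 6 h without KCl 6 h B (-0.26). For Kcnj14 it was the call at 6 h without KCl 6 h B (0.73) and that at 10 h without KCl 10 h B (-0.36), all given as log2 differences.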

How the results depend on the processing

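This check covered genes picked by rule and the peaks with the largest gain or fall, in the comparisons that picked them. None of them reversed under any alternative run. Members, partners and peaks named for other reasons were not part of it. The RNA results checked kept their side of the threshold 1684 times and lost the call 143 times, the peaks checked 268 and 68 times. Counts of calls were compared by size only, so a reversal could not show in them. The members called at 6 h of BDNF went from 22 higher and 21 lower to 21 and 22 with limma and another scaling (TMM). At an adjusted p below 0.01, 26 and 20 members were called at 6 and 10 h of BDNF, 22 at 1 h of KCl and 5 between 6 and 10 h of KCl. Linked peaks called then numbered 51, 34 and 21 at 1, 6 and 10 h of BDNF, 9, 9 and 16 of KCl, and 23, 4 and 1 between the stimuli, a construction that only raises the threshold. With controls of the same time, 19 linked peaks were called at 10 h of BDNF and 20, 21 and 18 at 1, 6 and 10 h of KCl, with fewer control libraries. With limma on LOESS-scaled counts, 20 were called at 1 h of KCl and 42 between the stimuli at 1 h, and the cause was not tested. Leaving out 1 library gave 20 to 36 members at 10 h of BDNF and 7 to 22 between 6 and 10 h of KCl. For linked peaks it gave 34 to 56 and 25 to 43 at 6 and 10 h of BDNF, 10 to 34, 6 to 41 and 13 to 40 at 1, 6 and 10 h of KCl, and 27 to 58, 5 to 9 and 1 to 3 between the stimuli. On the recovered reads edgeR called 26, 44 and 34 members at 1, 6 and 10 h of BDNF and 37, 61 and 49 of KCl (of all genes, 6430, 7142 and 6684, and 8861, 10779 and 9170). Other scalings moved the median over all genes or all peaks by at most 0.0414 in size (log2), reached over peaks at 10 h of BDNF against controls. With 2 libraries per stimulated group and a median of 3.55 M reads in peaks, precision was limited, most of all for the peaks.

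Whether the RNA letters pair the libraries is not given by the labels, and the correlations did not settle it. Deviations of same-lettered libraries correlated above 0.1 in 13 of 36 pairs of groups (from -0.31 to 0.42). The fit with the replicate block called 26, 45 and 36 members at 1, 6 and 10 h of BDNF, 37, 60 and 49 of KCl and 35, 52 and 52 between the stimuli. It ended the call of no gene picked by rule, in the comparisons that picked it. For ATAC-seq, no paired analysis was possible because the columns carry no number.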
